A study of Mus musculus with 14 samples.

Results

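The genes that move, fuse and divide mitochondria were examined in livers of high-fat-fed mice given mesenchymal stem cells (MSCs) or vehicle. They were 10 genes grouped by their known roles, with earlier results of these data known: the Miro GTPases Rhot1 and Rhot2, the motor adaptors Trak1 and Trak2, the fusion GTPases Mfn1, Mfn2 and Opa1, and the fission genes Dnm1l, Fis1 and Mff. For each gene, the row of the expression table annotated to that gene alone was used, and where there were several the row with the highest mean. Of the 10 genes, 9 were measured in this way, each by 1 probe set, among 19938 genes with a probe set of their own. Rhot2 was covered only by a probe set shared with the gene Wdr90, and no value is given for it.

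The HFM group was 7 male C57BL/6 mice given human bone marrow MSCs of a single donor, labelled with GFP, by tail vein. The HFS group was 7 male C57BL/6 mice given saline by the same route (called PBS in part of the methods). Both groups had eaten a high-fat diet for 20 weeks, were 24 weeks old and gave their livers 24 h after the injection. One array was used per mouse, no chow-fed group was on the arrays, and no batch, litter or scan date is given in the sources used here. Values are log2 expression per probe set as the authors normalized them, and every difference is HFM minus HFS on that scale, so that a difference of 1 is a doubling of signal. Probe sets differ in how strongly they bind, so values were compared between mice for 1 gene and not between genes.

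Mitochondria travel on microtubules, where Miro proteins anchored in the outer membrane hold the Trak adaptors and these hold kinesin and dynein. Mitofusins join the outer membranes of neighbouring mitochondria, and OPA1 joins the inner membranes and keeps the cristae in shape. For division, the receptors MFF and FIS1 on the outer membrane recruit the dynamin-related protein DRP1, the product of Dnm1l, which constricts the organelle. Liver cells are rich in mitochondria, and in cultured cells Miro1, the product of Rhot1, is known for its part in passing mitochondria from MSCs to other cells. Much of the control of these proteins is by cleavage, phosphorylation and ubiquitin, which RNA does not show.

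The arrays resembled one another, with medians of 4.24 to 4.35 and correlations of 0.970 to 0.991 between pairs of arrays. All 10 hepatocyte markers, with means of 9.49 to 13.47, were among the bright probe sets, as the liver label says, and none differed at an unadjusted p under 0.05. Mouse HFM3 stood somewhat apart, with the lowest mean correlation with the other arrays (0.977, where the others were at 0.982 to 0.987). Markers of Kupffer cells and macrophages were above 0 in 14 of 14 genes, with a median difference of 0.29 and 5 of them higher at an unadjusted p under 0.05. Of all 19938 genes, 10063 were above 0 and 6.56% passed that threshold in either direction. Neutrophil markers were above 0 in 8 of 8 genes (median 0.17), but 0 of them passed that threshold. Their mean, relative to the 14 mice, ran from -0.22 to 1.45 in HFM and from -0.30 to 0.50 in HFS livers. These genes were dim, with means of 2.88 to 4.86. Stellate cell markers were above 0 in 6 of 8 (0.16), and 1 of them was higher at that threshold. Those of cholangiocytes (2 of 5 above 0) and skeletal muscle (1 of 6) had medians of -0.04 and -0.12. The mean of the Kupffer cell and macrophage markers, relative to the 14 mice, ran from -0.26 to 0.76 in HFM and from -0.48 to 0.51 in HFS livers. The part of these cells in the results below was not tested. In whole liver, fewer cells of a type and less RNA per cell cannot be told apart, and neither can mouse RNA and any RNA of the human cells that binds the mouse probes.

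Differences in the transport, fusion and fission genes were small. The 9 measured genes had log2 differences of -0.04 to 0.21, and 5 were above 0 and 4 below. Past an unadjusted p of 0.05 from limma was 1 of 9, Trak2, which was higher, where 6.47% of all 23410 tested probe sets passed, 3.57% higher and 2.90% lower. None of the 9 passed an adjusted p of 0.05, as 0% of all probe sets did. None passed the filter of the methods (1.2-fold or more at p under 0.01), set here on limma's unadjusted p, which 0.696% of all probe sets passed. The methods also name a Bonferroni correction after the p cut-off, which was not applied here. The median difference was 0.04 over the 9 genes and 0.00 over all genes. All 9 were among the brighter probe sets, and over all brighter probe sets the median was 0.02.

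**Figure D1:**
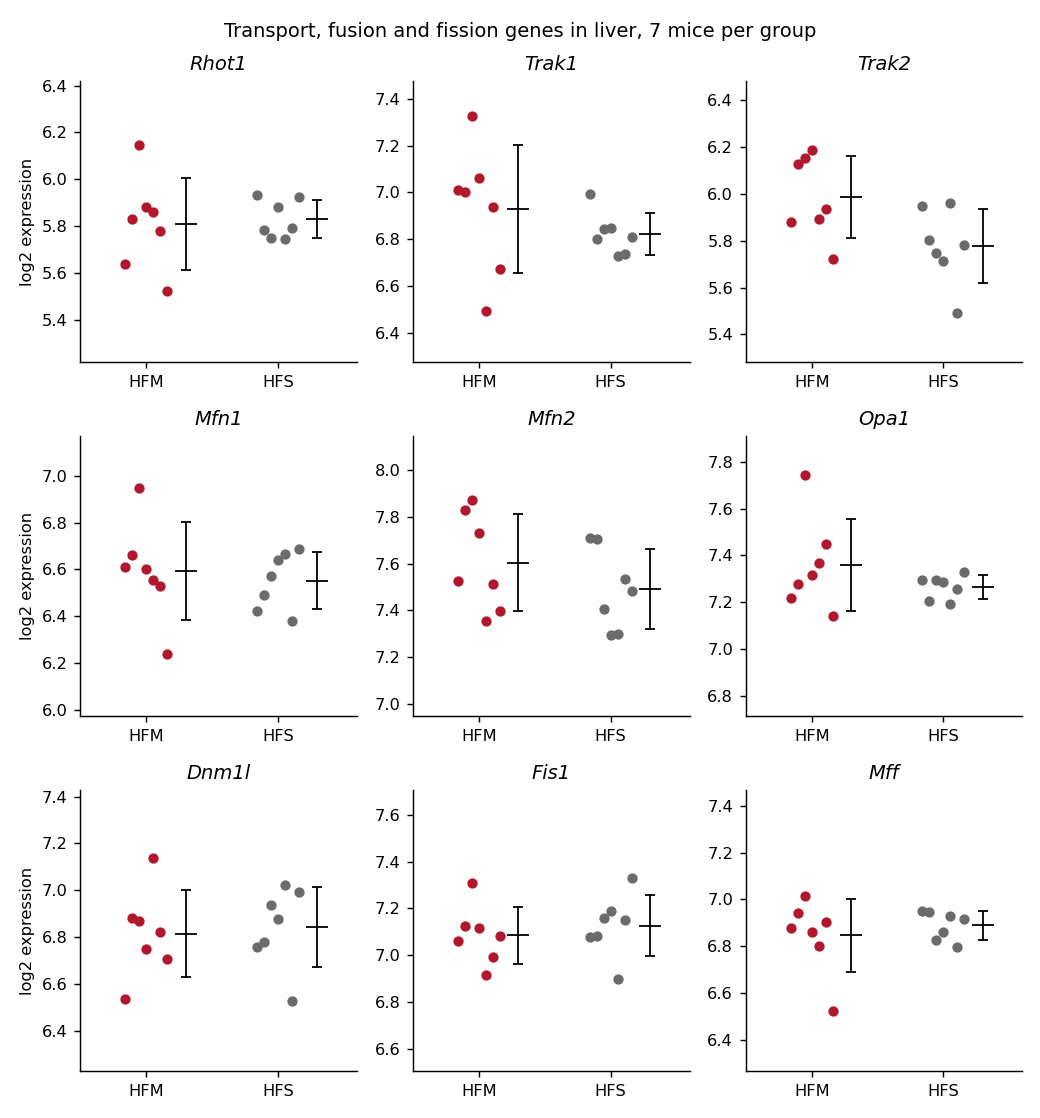
Expression (log2, as deposited) of the 9 measured genes in HFM (red) and HFS (gray) livers. Points are mice and bars the mean ± SD of 7 mice, and each panel spans the same number of log2 units around the gene's own mean. The groups overlapped for every gene, and for Trak2 3 HFM mice lay above all HFS mice.

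Rhot1 encodes Miro1, the outer membrane GTPase that ties mitochondria to the Trak adaptors. Its lowest, median and highest values were 5.52, 5.83 and 6.15 in HFM livers and 5.75, 5.79 and 5.93 in HFS livers. The HFS mice lay inside the range of the HFM mice, whose ends were HFM3 at the top and HFM7 at the bottom. HFM mice averaged 5.81 ± 0.20 and HFS mice 5.83 ± 0.08 (SD, n = 7 each), which differ by -0.02 (standard error 0.08, 95% interval -0.19 to 0.15). An exact permutation test gave p = 0.804. With the median of each array subtracted the difference was 0.0055, of the opposite sign.

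Of the adaptors that link Miro to kinesin and dynein, Trak2 was higher in HFM livers at the unadjusted threshold. Its values were 5.72 at the lowest, 5.94 at the median and 6.19 at the highest in HFM livers, against 5.49, 5.78 and 5.96 in HFS livers. HFM2, HFM3 and HFM4, at 6.13, 6.15 and 6.19, lay above every HFS mouse, and the HFS mice HFS4 (5.71) and HFS6 (5.49) lay below every HFM mouse. The other HFM mice were within the HFS range. HFM mice averaged 5.99 ± 0.17 and HFS mice 5.78 ± 0.16 (SD, n = 7 each). The difference of 0.21 (standard error 0.09, 95% interval 0.03 to 0.39) is 1.15-fold (1.02 to 1.31), and all HFM mice but HFM7 were above the mean of the HFS mice. The two-sided exact permutation test over 3432 assignments gave p = 0.0379, with no adjustment for the 9 genes, and limma's adjusted p over all probe sets was 0.768. The unadjusted threshold was missed without HFM2, HFM3, HFM4 or HFS6, when the difference was 0.18, 0.18, 0.17 and 0.16.

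Trak1, the paralog of Trak2, had 6.49, 7.00 and 7.33 as its lowest, median and highest values in HFM livers and 6.73, 6.81 and 6.99 in HFS livers. Here 4 HFM mice lay above all HFS mice, but HFM5 and HFM7 lay below all of them. HFM mice averaged 6.93 ± 0.27 and HFS mice 6.82 ± 0.09 (SD, n = 7 each), which differ by 0.11 (standard error 0.10, 95% interval -0.10 to 0.31; exact permutation test, p = 0.353).

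The mitofusins Mfn1 and Mfn2 tether and fuse outer membranes, and Mfn2 also joins mitochondria to the endoplasmic reticulum. Mfn2 had 7.36, 7.52 and 7.87 as its lowest, median and highest values in HFM livers and 7.29, 7.48 and 7.71 in HFS livers. Most mice of both groups lay in the shared range, with HFM2, HFM3 and HFM4 above all HFS mice. The difference was 0.11 (standard error 0.09, 95% interval -0.09 to 0.31; exact permutation test, p = 0.284). Mfn1 had 6.24, 6.60 and 6.95 in HFM livers and 6.38, 6.57 and 6.69 in HFS livers. Both extremes were HFM mice, HFM7 at the bottom and HFM3 at the top. Its difference was 0.04 (standard error 0.09, 95% interval -0.14 to 0.23; exact permutation test, p = 0.669).

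Opa1, the GTPase of inner membrane fusion, had 7.14, 7.32 and 7.74 as its lowest, median and highest values in HFM livers and 7.19, 7.29 and 7.33 in HFS livers. The HFS mice were within a narrow band, while HFM3, HFM5 and HFM6 lay above it, HFM3 by the most, and HFM7 below it. HFM mice averaged 7.36 ± 0.20 and HFS mice 7.27 ± 0.05 (SD, n = 7 each), which differ by 0.09 (standard error 0.08, 95% interval -0.07 to 0.26; exact permutation test, p = 0.264). Without HFM3 the difference was 0.03.

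The 3 fission genes had differences just below 0. Dnm1l, which encodes the DRP1 GTPase, had 6.53, 6.82 and 7.14 as its lowest, median and highest values in HFM livers and 6.53, 6.88 and 7.02 in HFS livers. Fis1, an outer membrane adaptor, had 6.92, 7.08 and 7.31 in HFM livers and 6.90, 7.15 and 7.33 in HFS livers. Mff, the main receptor of DRP1 in mammalian cells, had 6.52, 6.88 and 7.01 in HFM livers and 6.79, 6.92 and 6.95 in HFS livers. The groups overlapped almost wholly for Dnm1l and Fis1, and for Mff HFM7 alone lay below all HFS mice. Differences were -0.03 (standard error 0.09) for Dnm1l, -0.04 (standard error 0.07) for Fis1 and -0.04 (standard error 0.07) for Mff. The 95% intervals were -0.22 to 0.16 for Dnm1l, -0.19 to 0.11 for Fis1 and -0.19 to 0.10 for Mff, and the exact permutation p was 0.773, 0.544 and 0.611 in that order. For Fis1, HFM3 was the 1 HFM mouse above the mean of the HFS mice.

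**Figure D2:**
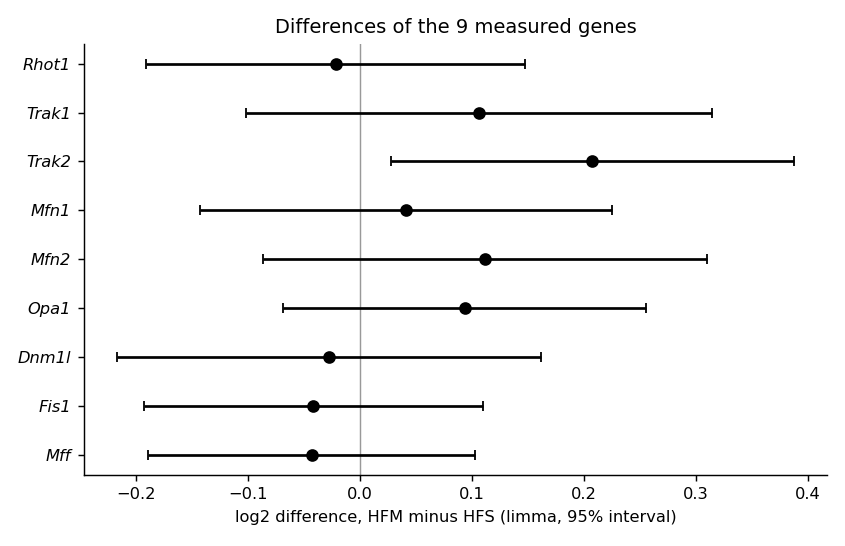
Log2 difference, HFM minus HFS, of each measured gene (x axis) with its 95% interval from limma. Trak2, at 0.21, had the 1 interval that did not span 0, and the fission genes lay at -0.04 to -0.03.

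Across the 9 genes, an interval of no gene reached a 1.5-fold change in either direction, as the widest upper bound was 0.39 (1.31-fold, Trak2). Set against each other, the fusion genes were higher by 0.08 on average and the fission genes were at -0.04. The mean of the fusion genes minus that of the fission genes, with each gene relative to its mean over 14 mice, was 0.06 ± 0.11 in HFM livers (-0.07 to 0.25) and -0.06 ± 0.06 in HFS livers (-0.12 to 0.02). HFM1, HFM2, HFM3, HFM4 and HFM6 lay above the highest HFS mouse and HFM5 and HFM7 did not. The difference of 0.12 is a description without a test, since the genes were grouped here, and it was 0.09 without HFM3. The mean of the transport genes was 0.05 ± 0.19 in HFM and -0.05 ± 0.08 in HFS livers.

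The HFM mice were more spread out than the HFS mice. The SD was larger in HFM livers for 8 of the 9 genes, all but Fis1, with a median ratio of the SDs of 1.71. The same held for 69.4% of all genes, with a median ratio of 1.27. Without HFM3 the SD was still larger in HFM livers for 8 of the 9 genes, and the median ratio was 1.24 over the 9 and 1.18 over all genes. HFM3 was the highest of the 14 mice for 6 of the 9 genes, Rhot1, Trak1, Mfn1, Mfn2, Opa1 and Mff. HFM7 was the lowest for 4, Rhot1, Mfn1, Opa1 and Mff. The mean of the 9 genes, each relative to its own mean, was 0.29 in HFM3 and -0.20 in HFM7, and within -0.13 to 0.10 in the other 12 mice. The array medians of these mice were 4.25 (HFM3) and 4.35 (HFM7). The upper quartile of the array's values was 5.82 in HFM3, the highest of the 14 mice, and 5.72 in HFM7, the lowest. Other mitochondrial genes were likewise high and low in these mice, as the mean of citrate synthase, respiratory chain and import genes was highest in HFM3 (0.19) and lowest in HFM7 (-0.19). The hepatocyte markers were also highest in HFM3 (0.09) and at -0.00 in HFM7. Those of red blood cells (2 genes measured) were lowest in HFM3 (-0.30) and highest in HFM7 (0.35). What sets these mice apart was not tested.

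**Figure D3:**
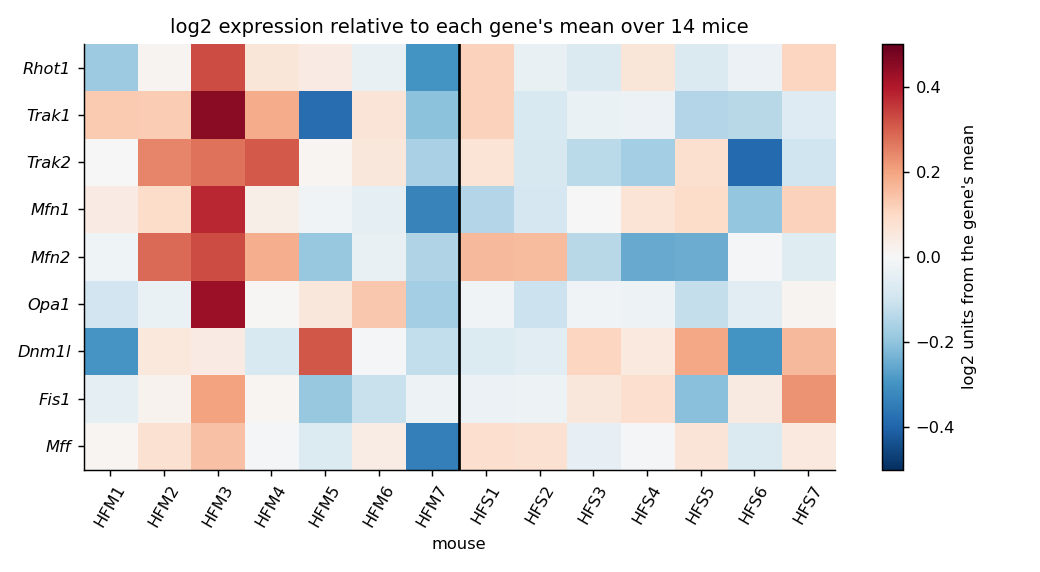
Expression of each measured gene (rows) in each mouse (columns, HFM left of the line and HFS right of it), in log2 units from that gene's mean over 14 mice. HFM3 is above the mean in every row, and HFM7 is below it in every row.

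Mice high in one of these genes tended to be high in others. Over 14 mice, 32 of 36 gene pairs had a positive Pearson correlation, with a median of 0.49 and a range of -0.28 to 0.79. The share of positive pairs over all genes was not computed, so whether this is particular to these genes was not tested. The upper quartile of an array's values was also highest in HFM3 and lowest in HFM7. After adjustment over the 36 pairs, 2 passed by Pearson's r and none by Spearman's rho. Rhot1 and Opa1 had r = 0.79 (permutation p = 0.0010, adjusted p = 0.0331) and rho = 0.68 (permutation p = 0.00835, adjusted p = 0.150). Within groups r was 0.90 in HFM and 0.69 in HFS livers, and without HFM3 and HFM7, the mice farthest out for Rhot1, it was 0.40. Leaving out the mice at the ends for Rhot1 narrows its range and by itself tends to lower r. How far the relation of Rhot1 and Opa1 rests on these 2 mice was not tested. Trak1 and Mfn2 had r = 0.74 (permutation p = 0.00184, adjusted p = 0.0331) and rho = 0.70 (permutation p = 0.00766, adjusted p = 0.150). Within groups r was 0.87 in HFM and 0.43 in HFS livers, and it was 0.63 without HFM3 and HFM5. Over all 36 pairs the median r was 0.68 within HFM and 0.16 within HFS livers, a difference that was not tested. Without the 2 mice farthest from the median of each pair's first gene, the median r over the 36 pairs was 0.21. Of the 4 negative pairs, 3 held Dnm1l, which was at -0.28 with both Trak1 and Mfn2. The mitofusins had r = 0.30 over 14 mice, from 0.77 in HFM and -0.72 in HFS livers.

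**Figure D4:**
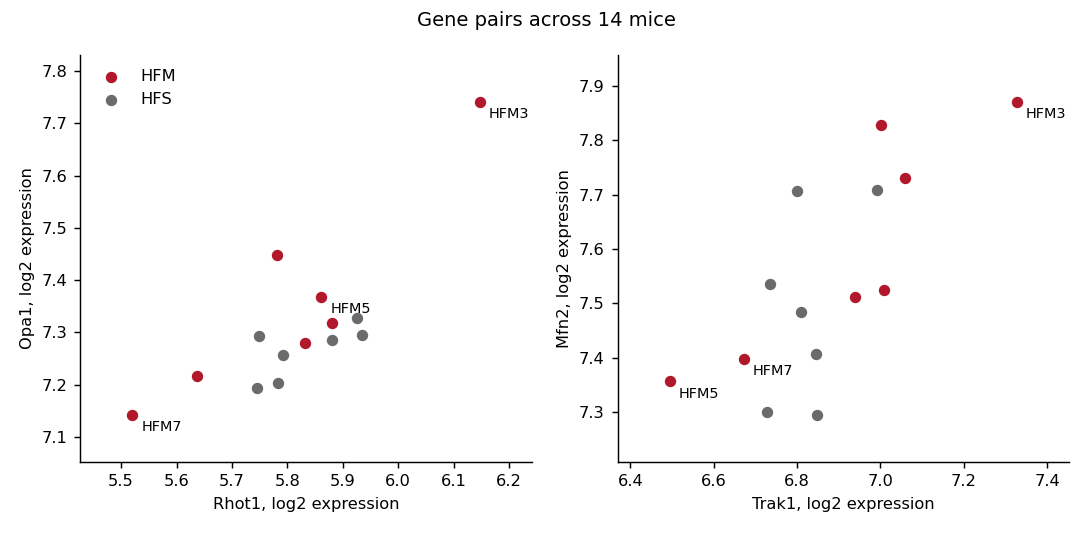
Log2 expression of Opa1 against Rhot1 (left) and of Mfn2 against Trak1 (right) in HFM (red) and HFS (gray) livers, with 1 point per mouse. HFM3 is at the upper right of both panels, and r over 14 mice was 0.79 for Rhot1 and Opa1 and 0.74 for Trak1 and Mfn2.

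Outside these genes, those whose values followed Trak2 most closely, after each group's mean was removed, were Rptor (r = 0.84), Erlec1 (0.83), Rnf4 (0.83), Gtf2h1 (0.82) and Daam1 (0.82). They are the highest of 19929 genes over 14 mice, so correlations of this size are a description. Rptor, the scaffold of mTOR complex 1, was at 0.17 (standard error 0.09) and the other 4 were at -0.01 to 0.09.

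The promoter sequences of the genes were set beside these values. RefSeq windows from 250 bases before to 50 bases after the transcript start (GRCm38.p6) were found for 10 of 10 genes, and 4 motifs known from nuclear genes of mitochondria or from promoters at large were searched on both strands. GCGCATGCG, the core site of NRF-1, an activator of respiratory chain genes, was found for Opa1 and for 1.95% of 27025 genes. CCGGAAGT, an ETS site, was found for Mfn1 and Fis1 and for 4.31% of all genes, and TGACGTCA, the cAMP response element, for Trak1 and 2.03%. ACTACANNTCCC, a site of ZNF143, was found for Trak2, Mfn2 and Dnm1l and for 2.08%, and was added to the search after the windows had been seen. None of these patterns contains another. The 250 bases before the start are shown for Opa1 and for the 3 genes with the ZNF143 letters, 5′ to 3′ on the strand of the gene, to show where the matches lie. Capitals mark the matched letters, 59 bases before the start in Opa1 (2 overlapping matches, 1 per strand), 41 in Trak2, 38 in Mfn2 and 35 in Dnm1l, counted to the first matched base. The windows are chr16:29579084-29579333 (plus strand), chr1:58973483-58973732, chr4:147904910-147905159 and chr16:16359032-16359281 (all minus strand).
Opa1: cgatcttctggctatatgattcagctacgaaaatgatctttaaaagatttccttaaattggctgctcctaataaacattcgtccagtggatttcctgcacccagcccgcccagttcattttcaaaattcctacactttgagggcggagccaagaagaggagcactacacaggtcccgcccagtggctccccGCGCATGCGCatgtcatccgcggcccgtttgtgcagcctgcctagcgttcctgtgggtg
Trak2: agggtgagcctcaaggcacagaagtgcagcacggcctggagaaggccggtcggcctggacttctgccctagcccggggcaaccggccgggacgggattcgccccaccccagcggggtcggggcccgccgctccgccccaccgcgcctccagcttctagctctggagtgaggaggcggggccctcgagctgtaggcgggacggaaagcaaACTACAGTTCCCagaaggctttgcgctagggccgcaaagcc
Mfn2: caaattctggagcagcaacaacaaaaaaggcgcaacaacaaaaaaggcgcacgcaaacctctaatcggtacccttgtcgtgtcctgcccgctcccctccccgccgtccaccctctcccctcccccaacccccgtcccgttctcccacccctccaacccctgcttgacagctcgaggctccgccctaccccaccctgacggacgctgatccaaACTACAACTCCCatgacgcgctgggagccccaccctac
Dnm1l: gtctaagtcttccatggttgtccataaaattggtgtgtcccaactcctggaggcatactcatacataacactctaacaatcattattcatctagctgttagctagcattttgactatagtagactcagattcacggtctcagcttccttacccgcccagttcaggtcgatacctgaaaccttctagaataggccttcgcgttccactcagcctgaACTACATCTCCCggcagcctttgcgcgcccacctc

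The 3 genes with the ZNF143 letters shared no direction. Trak2 was at 0.21, Mfn2 at 0.11 and Dnm1l at -0.03, and Mfn2 and Dnm1l had a correlation of -0.28. Mfn2 has 3 listed starts and Dnm1l 2, and the window shown is one that holds the match. A match is a description of letters, and binding was not measured.

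Genes around this machinery were counted in 7 lists, with 151 of 157 genes measured. Of these, 3 were higher and 1 was lower at an unadjusted p under 0.05, or 2.65%, against 6.56% of all 19938 genes (681 higher and 627 lower). None passed the filter of the methods, which 125 of all genes did, and the smallest adjusted p was 0.749. The median difference was 0.03 over the lists, with 96 genes above 0 and 55 below. Over all genes it was 0.00, with 10063 of 19938 above 0. Of the 151 genes, 128 were among the brighter probe sets, and over all brighter probe sets the median was 0.02. Whether the lists differ from other genes of like brightness was not tested. The count past the unadjusted threshold depended on single mice. It was 12 without HFM7, 11 without HFM5, 8 without HFM1 and 7 without HFS1, HFS5 or HFS7. The share of all genes was then 10.9%, 8.88% and 6.78%, and 6.07%, 6.57% and 6.59%. It also depended on the scaling, as with the median of each array subtracted 11 genes passed, or 7.28%, against 7.08% of all genes, so the gap to all genes was not there under that setting.

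**Figure D5:**
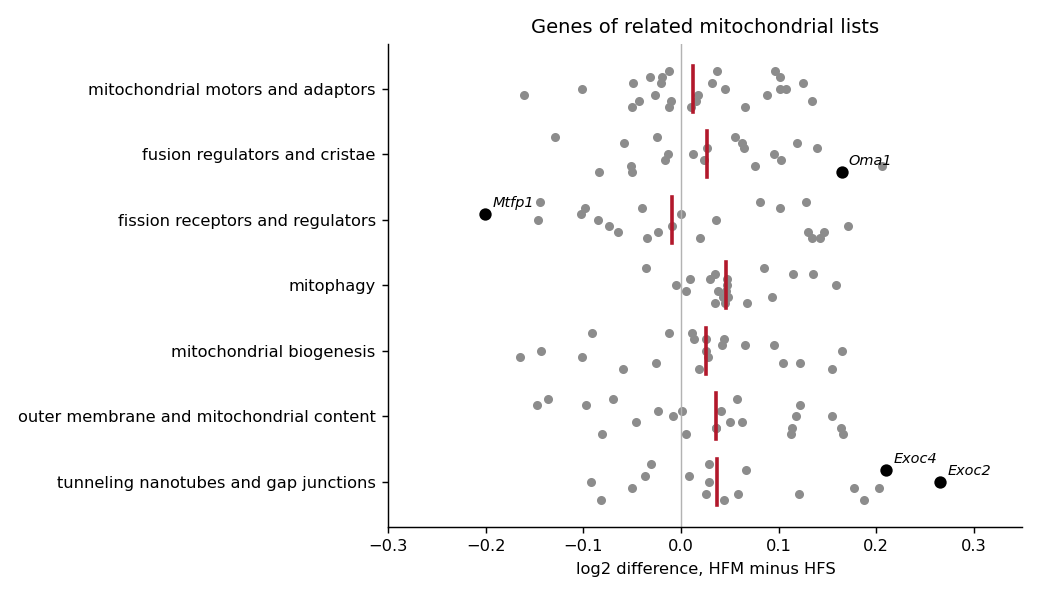
Log2 difference, HFM minus HFS, of each gene (points) of 7 lists of related genes, with the median of each list (red line). Black points are the 4 genes past an unadjusted p of 0.05, and the medians lay between -0.01 and 0.05.

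Among mitochondrial motors and adaptors, 0 of 26 measured genes passed an unadjusted p of 0.05 in limma, and 14 were above 0. Those with the smallest p were Armc10, an outer membrane protein that binds the Trak and Miro complex, at 0.13 (standard error 0.07), Kifbp, a kinesin-binding protein, at 0.12 (standard error 0.07), and Snph, the syntaphilin that docks mitochondria on microtubules in axons, at -0.16 (standard error 0.09). Among fusion regulators and cristae genes, 1 of 21 was higher. This was Oma1, the inner membrane protease that cuts OPA1 under stress, at 5.06 ± 0.17 in HFM and 4.90 ± 0.11 in HFS livers (difference 0.16, standard error 0.08). Its substrate's gene Opa1 was at 0.09. Apool and Micos13, subunits of the cristae-organizing MICOS complex, were at 0.21 (standard error 0.11) and 0.14 (standard error 0.08).

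Among fission receptors and regulators, 1 of 23 was lower. Mtfp1, an inner membrane protein whose loss lengthens mitochondria, was at 4.45 ± 0.11 (4.29 to 4.62) in HFM and 4.65 ± 0.15 (4.39 to 4.78) in HFS livers, which differ by -0.20 (standard error 0.07). Its signal was low, with a mean of 4.55 over 14 mice where the array medians were 4.24 to 4.35. Dnm2, a dynamin of membrane scission, and Usp30, a deubiquitinase of the outer membrane, were at 0.17 (standard error 0.08) and 0.13 (standard error 0.06), and missed the threshold. The list's median was -0.01.

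In mitophagy, the removal of mitochondria by autophagy, 18 of 20 genes were above 0 with a median of 0.05, and 0 passed an unadjusted p of 0.05 in limma. Of all 19938 genes, 10063 were above 0, and the median over all brighter probe sets was 0.02. Whether this list differs from other genes of like brightness was not tested. Tbk1, a kinase of autophagy receptors, was at 0.16 (standard error 0.09), Map1lc3b, the autophagosome protein LC3B, at 0.13 (standard error 0.09) and Sqstm1, the receptor p62, at 0.12 (standard error 0.09). In mitochondrial biogenesis 0 of 21 passed. Ppara, the fatty acid receptor of hepatocytes, was at 0.17 (standard error 0.12), Pprc1, a coactivator related to PGC-1, at -0.17 (standard error 0.09) and Nrf1, which encodes NRF-1, at -0.14 (standard error 0.08). Among 23 genes of the outer membrane and of mitochondrial content, 15 were above 0 and 0 passed. Sdhb, a subunit of complex II, was at 0.16 (standard error 0.08), Timm44 of the import motor at 0.12 (standard error 0.06) and Atp5a1, a subunit of ATP synthase, at 0.16 (standard error 0.10).

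Tunneling nanotubes and gap junctions are structures through which cells exchange organelles or small molecules. Of 18 of their genes, 2 were higher and 0 lower at the unadjusted threshold, against 681 higher and 627 lower of all 19938 genes. These were Exoc2 and Exoc4, which encode subunits of the exocyst, a tether of vesicles at the plasma membrane in all cells. The exocyst genes Exoc1, Exoc3, Exoc5, Exoc6 and Exoc7 were at -0.05, 0.01, -0.03, 0.04 and 0.03 and did not pass. Exoc2 was at 5.71 ± 0.26 (5.37 to 6.08) in HFM and 5.44 ± 0.17 (5.19 to 5.68) in HFS livers, which differ by 0.27 (standard error 0.11). Exoc4 was at 6.43 ± 0.18 (6.24 to 6.75) in HFM and 6.21 ± 0.18 (6.00 to 6.48) in HFS livers, which differ by 0.21 (standard error 0.09). The groups overlapped for both. Myo10, a myosin of filopodia, was at 0.18 (standard error 0.10), and the list's median was 0.04.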

How the data were processed

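Liver RNA of 7 HFM and 7 HFS mice was hybridised to Affymetrix Mouse Gene 1.0 ST arrays. The authors deposited log2 values for each probe set, which they had summarised and normalised in Expression Console. The labels name RMA and the paper names PLIER for this step, and their versions, like the annotation and build, were not given in the sources used here. Group labels came from the sample titles, and 0 value columns were left out.

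The 23410 probe sets with a gene symbol were fitted with limma 3.58.1 (R 4.3.3) without covariates, and 12146 others were not used. Adjustment followed Benjamini and Hochberg over these probe sets. No signal filter was set. Single genes were compared with two-sided exact permutation tests over 3432 assignments (smallest p 0.000583), and correlations with 100000 permutations (numpy 2.4.6, scipy 1.17.1). The p values weigh a difference or a correlation against the variation between these mice. In limma the variance of a gene also draws on all tested probe sets. The number of arrays limits the precision. The scripts were tested on simulated data. Each list named its 3 genes with the smallest p. The members, lists and tests were chosen with earlier results of these data known. Alternatives were a replicate block, median subtraction, quantile normalization, brighter or all probe sets, array weights, other priors, mean probe sets and each mouse left out. The lists' counts under these alternatives, and leaving out HFM3 with HFM7, were added after the data were seen.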

Additional observations from a re-analysis of the deposited data

Results flagged for a closer look

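Among 62 sets of 7 mice (the genes named, each in HFM and HFS livers), 4 held a mouse far from the other 6, and chance alone gives about 1 in 20. None of the 9 genes of transport, fusion and fission was among them. Snph was at 6.49 in HFM3, below the other HFM mice. Atp5a1 was at 10.50 in HFM3, above the other HFM mice. Tbk1 was at 5.65 in HFS2, below the other HFS mice. Ppara was at 9.02 in HFS1, above the other HFS mice.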

How the results depend on the processing

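Trak2 was higher under every alternative, by 0.16 to 0.25, with an unadjusted limma p of 0.00718 to 0.0679. It passed 0.05 in the 10 alternatives that kept all mice or left out both HFM3 and HFM7, the replicate block among them, so that 1 member passed in each. With 1 mouse left out the count of members was 0 to 1, and it was 0 without HFM2, HFM3, HFM4 or HFS6. No member passed an adjusted p of 0.05 or the filter of the methods in any setting. The balance of fusion and fission was 0.09 to 0.14 with 1 mouse left out. Differences near 0 changed sign. Rhot1 was at 0.0055 with medians subtracted and at -0.078 to 0.026 with 1 mouse left out, Mfn1 at -0.019 to 0.10, Dnm1l at -0.081 to 0.019 and Mff at -0.071 to 0.010. Of the 151 genes of the related lists, 4 passed an unadjusted p of 0.05. The count was 2 with the replicate block (1.32%, against 5.73% of all genes), 2 of 128 among brighter probe sets (1.56% against 6.45%), 11 with medians subtracted (7.28% against 7.08%), 9 with array weights (5.96% against 8.01%), 7 without HFM3 and HFM7 (4.64% against 7.89%), and 3 to 12 with 1 mouse left out. The numbers of the mice are not said to pair them. Of the 7 pairs of mice with the same number, 1 correlated above 0.1 (-0.20 to 0.14), which cannot show that no pairing existed. The r of Rhot1 and Opa1 was 0.40 without HFM3 and HFM7, 0.63 after quantile normalization and 0.61 to 0.85 with 1 mouse left out. The causes of these changes were not tested. Only 7 arrays per group limit the precision.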

Other observations

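Mouse HFM3, the highest of 14 mice for 6 of the 9 transport, fusion and fission genes, also had the highest mean of the motor and adaptor list (0.09), of fusion regulators and cristae (0.13), of fission regulators (0.12), of biogenesis (0.18) and of tunneling nanotubes (0.15), each relative to the 14 mice, and the next to highest mean of mitophagy (0.13). Mouse HFM7 had the lowest mean of fusion regulators and cristae (-0.12), mitophagy (-0.15), biogenesis (-0.13) and tunneling nanotubes (-0.13). Of the marker lists, those of hepatocytes (0.09), sinusoidal endothelial cells (0.16) and adipocytes (0.15) were highest in HFM3, and those of red blood cells (-0.30), cholangiocytes (-0.17) and skeletal muscle (-0.16) were lowest there. In HFM7 markers of red blood cells (0.35) and of T, NK and B cells (0.10) were the highest of 14. In HFM3 those of Kupffer cells and macrophages stood at 0.24, the fourth of 14. No test was made of these values.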
